A study of Danio rerio with 3 samples.

Results

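Connexins are the proteins of gap junctions, and 5 connexin genes were followed through the cells of the adult zebrafish retina: cx52.6, cx55.5, cx52.9 and cx52.7, taken as genes of horizontal cells, and cx43, taken as a gene of glia. They were chosen by name, as 5 of 30579 gene symbols in the count matrices, and 28 further connexin symbols served for comparison. RefSeq lists the 5 genes as gja10b (cx52.6), gja9a (cx55.5), gja9b (cx52.9), gja10a (cx52.7) and gja1b (cx43). The study listed cx52.6, cx52.9 and cx55.5 as horizontal cell markers from earlier work and found them enriched there in its own data. Their place in horizontal cells is therefore not independent evidence here.

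Whole retinas of adult fish were dissociated and sequenced cell by cell with 10X Chromium 3′ chemistry, in which a unique molecular identifier (UMI) counts each captured transcript once. The WT V3 library came from the AB strain, and the P23H V3 and P23H V2 libraries came from the uth4Tg line, whose fish carry a P23H mutant rhodopsin transgene as a model of retinitis pigmentosa. Each library pooled cells of 3 fish, and for all of them the labels put the age at 4 to 8 months and the sampling at 2 to 4 h into the light phase, whereas the study's methods give older ages and an earlier sampling. There was 1 library per group, so genotype, strain, pool of fish and library cannot be told apart, the P23H V2 library differs from the others in chemistry as well, and no test between groups was possible. By the study's name for the strain, the transgene encodes a tagged mouse rhodopsin under the rho promoter of rods. A WT V2 library was not analysed here.

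A gap junction forms where connexin hexamers in the membranes of neighbouring cells dock and let ions and small molecules pass. Horizontal cells receive photoreceptor input and feed back onto it, and they are coupled to one another through gap junctions into a wide electrical network. In teleosts, connexins of horizontal cells also form hemichannels in the dendrites that enter cone terminals, where they have been linked to feedback. Müller glia, the radial glia of the retina, and the retinal pigment epithelium (RPE) are coupled as well, and Cx43 is the best known connexin of astrocytes in mammals.

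The libraries kept 13554 (WT V3), 15514 (P23H V3) and 4671 (P23H V2) cells, with medians of 1220, 1245 and 457 UMIs per cell. The V3 libraries shared 64 barcode sequences, the WT V3 and P23H V2 libraries shared 1, and the P23H libraries shared 0. A doublet caller marked 0, 0 and 3 cells, too few for it to have worked, and doublets were therefore kept. Horizontal cells were found without any connexin: in the V3 libraries 9 of 9 horizontal cell markers met the rule for the cluster, among them mdka at 45748 CPM (UMIs of the gene per 1000000 UMIs of the cells summed) in WT V3 against 464 CPM in all other cells. They numbered 468 in WT V3, 481 in P23H V3 and 331 in P23H V2, with medians of 2028, 1827 and 334 UMIs per cell.

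The most abundant of the 4 horizontal cell connexins was cx52.6 in every library. It had 1345 UMIs in WT V3, 857 in P23H V3 and 159 in P23H V2, or 1334 CPM (95% Poisson interval 1264 to 1407), 863 CPM (806 to 923) and 1311 CPM (1115 to 1531). The WT V3 and P23H V2 intervals overlapped, and the P23H V3 interval lay below both. Intervals here and below cover counting error only. A UMI of cx52.6 was present in 75.4% of WT V3, 66.5% of P23H V3 and 33.2% of P23H V2 horizontal cells. Cones, which should lack the gene, had it in 0.292% of 1712 cells at a median of 3520 UMIs in WT V3, in 0 of 1181 cells in P23H V3, which allows a share of up to 0.254%, and in 0.228% of 439 cells at a median of 672 UMIs in P23H V2.

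The next was cx55.5, the zebrafish horizontal cell connexin whose mutant is best known for weakened feedback to cones. It had 664, 540 and 36 UMIs in WT V3, P23H V3 and P23H V2, or 658 CPM (609 to 711), 544 CPM (499 to 592) and 297 CPM (208 to 411). The 3 intervals were separate, with WT V3 highest and P23H V2 lowest. The WT V3 value includes a second, suffixed row of the gene that was at 0 UMIs in both P23H libraries, and without that row WT V3 had 603 CPM (556 to 653), which overlapped P23H V3. The shares of horizontal cells with a UMI were 67.1%, 57.0% and 10.6%, against 0.234% of cones in WT V3 and 0 of the cones in the P23H libraries.

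The next again, cx52.9, is a gja9 gene like cx55.5. It had 391, 330 and 17 UMIs, or 388 CPM (350 to 428) in WT V3, 332 CPM (297 to 370) in P23H V3 and 140 CPM (81.6 to 224) in P23H V2. The V3 intervals overlapped and the P23H V2 interval lay below them. A UMI was found in 47.2%, 40.3% and 5.14% of horizontal cells, against 0 cones in WT V3 and 0.169% of cones in P23H V3.

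The gja10 paralog of cx52.6, cx52.7, was scarce. It had 18 UMIs in 18 cells of WT V3, 35 UMIs in 33 cells of P23H V3 and 1 UMI in P23H V2, or 17.9 CPM (10.6 to 28.2), 35.3 CPM (24.6 to 49.0) and 8.24 CPM (0.209 to 45.9). Each pair of intervals overlapped, and no cell held more than 2 UMIs. Among all cells outside the horizontal cells, 1 UMI of cx52.7 was counted in WT V3 and 0 in both P23H libraries.

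**Figure D1:**
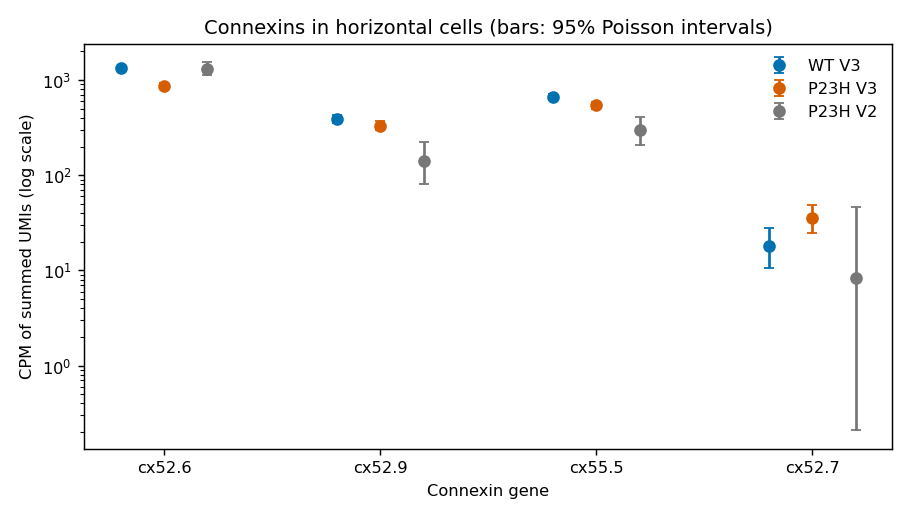
CPM of summed UMIs (log scale) of the 4 connexins in the horizontal cells of each library, 1 point per library, with 95% Poisson intervals that cover counting error only. cx52.6 lies highest in each library, at 1334, 863 and 1311 CPM, and cx52.7 lowest.

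The 4 genes had the same order in the 3 libraries but not the same proportions. Of their pooled UMIs in horizontal cells, cx52.6 made up 55.6% (53.6 to 57.6, exact binomial) in WT V3, 48.6% (46.3 to 51.0) in P23H V3 and 74.6% (68.2 to 80.3) in P23H V2. The 2 gja9 genes kept close to the same ratio, with 0.589 (0.518 to 0.668), 0.611 (0.531 to 0.702) and 0.472 (0.249 to 0.863) UMIs of cx52.9 per UMI of cx55.5, and these intervals overlapped. The ratio of cx52.6 to cx55.5 was 2.03 (1.84 to 2.23), 1.59 (1.42 to 1.77) and 4.42 (3.06 to 6.53), and no pair of these intervals overlapped. Both P23H libraries were therefore apart from WT V3 in this ratio, on opposite sides of it. The WT V3 counts of cx55.5 in these proportions include 56 UMIs of its suffixed copy, which had 0 UMIs in the P23H libraries. UMIs were not divided by transcript length, since 3′ tags count a transcript once, and how well each 3′ end is annotated was not examined.

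Between the V3 libraries, cx52.6 was 1.54-fold higher in WT than in P23H horizontal cells (1.42 to 1.68, exact conditional interval of the counts), a log2 ratio of P23H over WT of -0.63. The log2 ratio was -0.28 (-0.44 to -0.11) for cx55.5, -0.22 (-0.44 to -0.01) for cx52.9 and 0.98 (0.12 to 1.89) for cx52.7. For cx52.9 and cx52.7 these ratio intervals stopped short of equality, although the CPM intervals overlapped. Overlap of separate intervals is the coarser comparison, and neither kind of interval covers differences between fish. With a ratio of 1.5 as the rule of size, 1 of the 4 genes, cx52.6, was lower in P23H, where 15.0% of the 4387 genes with at least 50 UMIs were. One gene, cx52.7, was higher, where 19.3% of these genes were. The median log2 ratio was -0.25 over the 4 connexins and 0.07 over all genes compared. A ratio of 1.5 was thus common among these genes. They were not matched to cx52.6 for count, and genes near 50 UMIs carry more counting error than it does. For cx52.6, cx52.9 and cx55.5 the study reported that WT and P23H did not differ significantly, whereas the ratios here come without a test.

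The older chemistry gave other ratios. P23H V2 stood at 0.98 times the WT V3 level for cx52.6 (0.828 to 1.16), while WT V3 was 2.77-fold higher for cx52.9 (1.71 to 4.80) and 2.22-fold higher for cx55.5 (1.59 to 3.20). The P23H libraries, which share their genotype, differed from each other by 1.52-fold in cx52.6 (1.27 to 1.80), with V2 higher, and by 2.37-fold in cx52.9 and 1.83-fold in cx55.5, with V3 higher. The lower cx52.6 level of P23H V3 was thus not seen in P23H V2.

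Other transcripts also differed between the libraries in the same cells. The summed level of 7 rod genes (6 rod markers and rho) in horizontal cells was 10431 CPM in WT V3, 2442 CPM in P23H V3 and 1912 CPM in P23H V2, with none of the 7 at 0. The sum was lower in P23H V3 than in WT V3 in every named cell type. In erythroid cells, which should lack these genes, it was 8296 CPM in WT V3 and 1707 CPM in P23H V3. The fall was therefore not particular to horizontal cells. The 9 horizontal cell markers together had 68002, 58588 and 75575 CPM. Of these, lbh (2997 to 1723 CPM), aqp9a (2540 to 1746 CPM) and ompa (2272 to 1548 CPM) were lower in P23H V3 than in WT V3, and slc4a5 (2299 to 2983 CPM) was higher. The part of these shifts in the connexin ratios was not tested.

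Shares of cells with a UMI follow depth, and cells were therefore thinned to equal depth. At 300 UMIs per cell, which left out 97 of the P23H V2 cells, cx52.6 was found in 25.6% (21.7 to 29.8) of WT V3, 21.2% (17.6 to 25.1) of P23H V3 and 33.3% (27.3 to 39.8) of P23H V2 horizontal cells. The P23H V2 share, the lowest of the 3 before thinning, was the highest after it, although its interval overlapped that of WT V3. For cx55.5 the thinned shares were 17.9%, 16.4% and 9.40%, and for cx52.9 they were 12.0%, 10.2% and 3.85%. At 1000 UMIs per cell, which left out 63 WT and 48 P23H cells, cx52.6 was found in 60.5% (55.6 to 65.3) of WT V3 and 50.8% (46.0 to 55.6) of P23H V3 cells, with intervals that met at their ends. The thinned shares of cx55.5 (47.4% and 42.7%) and cx52.9 (29.6% and 28.4%) had overlapping intervals.

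Detection of more than 1 connexin in a cell varied with depth. At full depth 326 of 468 WT V3 and 290 of 481 P23H V3 cells, but 20 of 331 P23H V2 cells, had 2 or more, and after thinning to 1000 UMIs 174 of 405 WT V3 and 172 of 433 P23H V3 cells did. After thinning to 300 UMIs, 41 of 468 WT V3 (8.76%), 38 of 481 P23H V3 (7.90%) and 9 of 234 P23H V2 cells (3.85%) did. P23H V2 thus still had the lowest share at equal depth, but on 9 cells, and no intervals were calculated for these shares. In WT V3, 37 of 468 cells had none of the 4 genes, 105 had 1, 183 had 2, 137 had 3 and 6 had all 4. In P23H V3, the numbers were 59, 132, 191, 89 and 10 of 481 cells, and in P23H V2 they were 189, 122, 19, 1 and 0 of 331. Cells with no connexin were the shallow ones: their median was 1220 UMIs in WT V3 and 1334 UMIs in P23H V3, against 2487 and 2397 UMIs in cells with 3 connexins. At this depth a cell without a UMI cannot be called negative. After thinning to 1000 UMIs, 58 of 405 WT V3 and 87 of 433 P23H V3 cells had none of the 4.

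**Figure D2:**
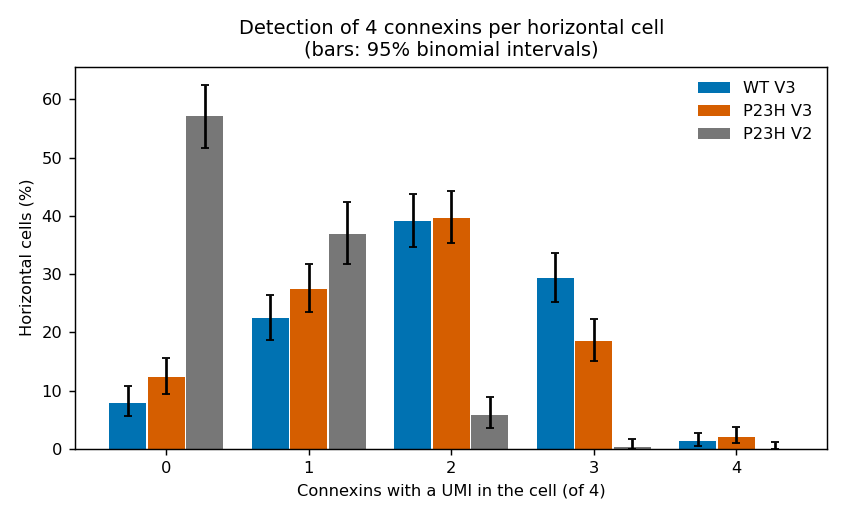
Percent of horizontal cells (y axis) with a UMI of 0, 1, 2, 3 or 4 of the connexins (x axis) in each library, without thinning, and 95% binomial intervals. In the V3 libraries the largest class has 2 connexins (39.1% and 39.7%), and in the shallower P23H V2 library it has 0 (57.1%).

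In the V3 libraries, cells with cx55.5 or cx52.9 had cx52.6 at a higher share than all horizontal cells. All horizontal cells include these cells, which draws the compared shares together. Of the WT V3 cells with cx55.5, 80.9% also had cx52.6, and of those with cx52.9, 79.6% did, against 75.4% of all. In P23H V3 these shares were 73.0% and 70.1%, against 66.5% of all. In P23H V2 they were 34.3% (12 of 35 cells) and 35.3% (6 of 17 cells), on few cells and close to the 33.2% of all. In WT V3, 314 of 468 cells had cx55.5, of which 254 had cx52.6, as did 99 of the rest. In P23H V3, 274 of 481 cells had cx55.5, of which 200 had cx52.6, as did 120 of the rest. In P23H V2, 35 of 331 cells had cx55.5, of which 12 had cx52.6, as did 98 of the rest. Deeper cells hold more UMIs of each gene, and these shares were not matched for depth. Of the 18 WT V3 cells with cx52.7, 15 also had cx52.6, as did 26 of the 33 in P23H V3. The highest count in a cell was 20 UMIs of cx55.5 and 19 UMIs of cx52.6, both in WT V3. The tenth of cells with the most cx52.6 held 33.3% of its UMIs in WT V3 and 37.7% in P23H V3.

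The connexins were not spread evenly over kinds of horizontal cells. The 949 horizontal cells of the V3 libraries were split into 8 sub-clusters, again without connexin rows, and each is called by its leading genes. The largest, led by gad1b (a GABA-synthesizing enzyme), LOC101882645, tymp, lhx1a (a LIM homeobox factor of horizontal cells) and slc6a1l, held 178 WT and 168 P23H cells. Its cx52.6 level was 1914 CPM (1787 to 2047) in WT and 1239 CPM (1130 to 1355) in P23H, against 884 and 623 CPM in all other horizontal cells of the library. It was thus 2.16-fold and 1.99-fold richer in cx52.6 than the other cells.

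In the same sub-cluster cx52.9 was 2.07-fold richer in WT (547 against 264 CPM) and 1.97-fold in P23H (475 against 241 CPM). The log2 ratio of cx55.5 to the other cells was 0.26 (0.04 to 0.49) in WT and -0.19 (-0.45 to 0.07) in P23H. For all of these ratios, the other cells included the sub-clusters, described below, that carry genes of other cell types. The part of those cells in the ratios was not tested. Of the UMIs of cx52.7, 11 of 18 in WT and 21 of 35 in P23H fell there, and at a finer resolution (0.8) the WT ratio of cx52.7 changed sign, from a log2 ratio of 1.02 to -0.30.

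The second sub-cluster, led by vwc2, ppap2d, cryba4, gapdh and ntrk3a (a neurotrophin receptor), had 132 WT and 170 P23H cells. Its levels of cx52.6 were 930 CPM (804 to 1070) and 820 CPM (715 to 936), and those of cx55.5 were 625 CPM (522 to 741) and 689 CPM (593 to 796). In P23H this cx55.5 level lay above that of the gad1b sub-cluster (501 CPM, 433 to 576), and in WT their intervals overlapped. In another, led by lrrtm1, cda, ptprt, mab21l2 and dab1a, with 40 WT and 39 P23H cells, cx52.6 (756 and 600 CPM) was no higher than cx55.5 (808 and 865 CPM). The leading gene cda had 44 UMIs in its WT cells and 0 in its P23H cells, and LOC101882645 had 0 in WT and 1413 in P23H cells of the first sub-cluster, so that leading genes can differ by library.

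The lowest cx52.6 level among sub-clusters with few genes of other cell types was in the one led by shisa7b, zgc:110372, cd9a, arhgef18b and grip1. Its 21 WT cells had 14 UMIs of cx52.6 (348 CPM, 190 to 584) and 33 of cx55.5 (820 CPM, 565 to 1152). Its 31 P23H cells had 6 UMIs of cx52.6 (138 CPM, 50.8 to 301) and 20 of cx55.5 (462 CPM, 282 to 713). In both libraries cx55.5 exceeded cx52.6 there, the reverse of the order over all horizontal cells.

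The other 4 sub-clusters carried genes of other cell types among their leading genes. In order, these were hbaa1 and ba1 of erythroid cells (50 WT and 19 P23H cells), cabp5a and vsx1 of bipolar cells (27 and 31), and opn1mw4 and gngt2b of cones (13 and 9). The last, led by kcnip1b and cplx2l (7 and 14), had 2 listed markers of other cell types among its 10 leading genes. All 4 still had cx52.6, at 285 to 1516 CPM in WT and 416 to 589 CPM in P23H. Each of these 4 had at least 2 markers of other cell types among its 10 leading genes, where the gad1b and lrrtm1 sub-clusters had 1. The gene gad1b is itself on the list of amacrine markers used here. Without these 4, the log2 ratio of P23H V3 over WT V3 was -0.56 for cx52.6, below a ratio of 1.5, and -0.26 for cx55.5. Within the gad1b sub-cluster the log2 ratio of cx52.6 was -0.63 (-0.79 to -0.46), and within the vwc2 sub-cluster it was -0.18 (-0.47 to 0.10). Whether these ratios differ between sub-clusters was not tested. For cx55.5 they were -0.54 (-0.80 to -0.28) and 0.14 (-0.19 to 0.48), with the suffixed copy of WT V3 counted.

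**Figure D3:**
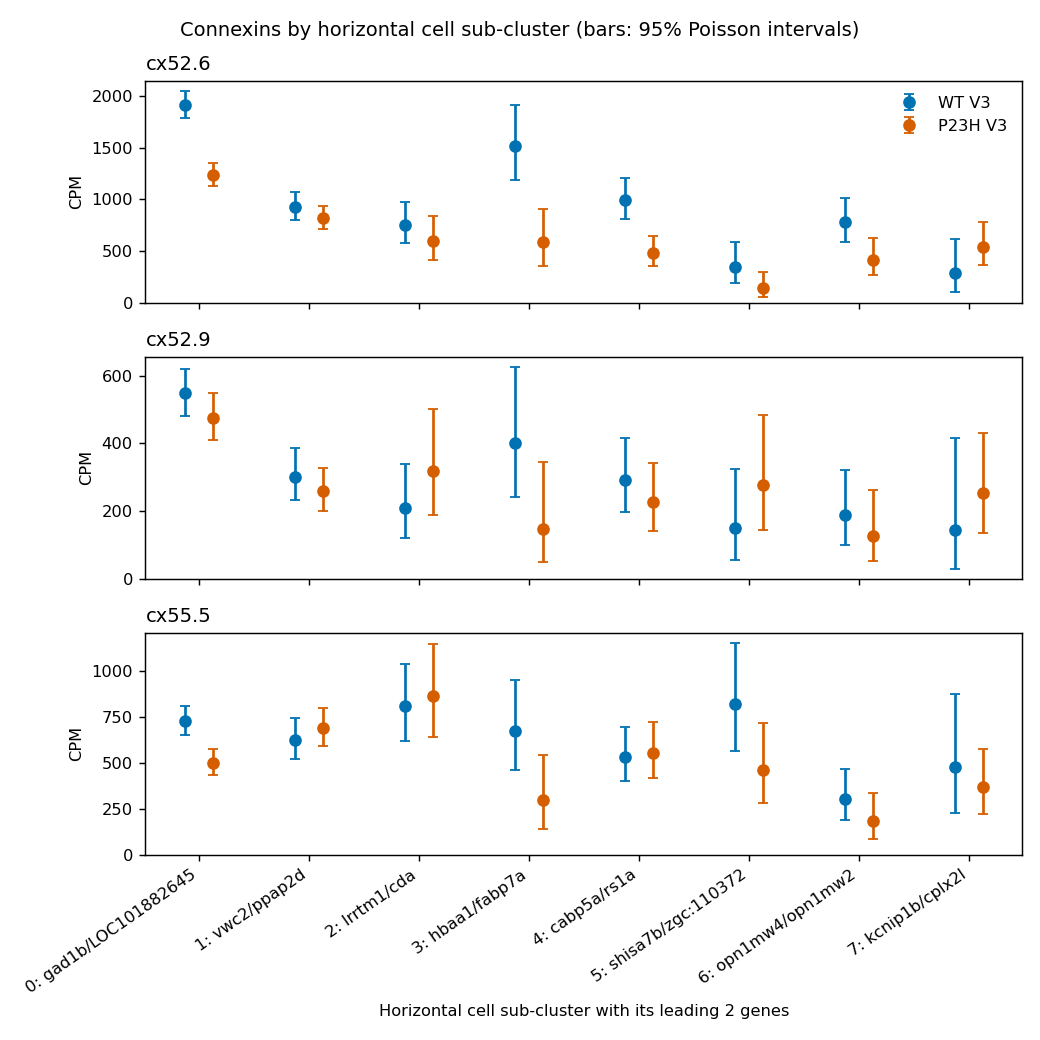
CPM of 3 connexins, cx52.6, cx52.9 and then cx55.5 (y axes), in the 8 sub-clusters of horizontal cells (x axis, with the leading 2 genes of each) in WT V3 and P23H V3, with 95% Poisson intervals. cx52.6 is highest in the gad1b sub-cluster (1914 and 1239 CPM) and low in the shisa7b sub-cluster (348 and 138 CPM), while cx55.5 is at 726 and 501 CPM in the former and at 820 and 462 CPM in the latter.

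A split that also fits the shallow library was chosen after these values had been seen. Horizontal cells with a UMI of isl1, a LIM homeobox factor of some horizontal cells in vertebrates, had less cx52.6 than those without in each library: 907 against 1502 CPM in WT V3, 723 against 897 CPM in P23H V3, and 572 against 1393 CPM in P23H V2. The log2 ratios were -0.73 (-0.93 to -0.53), -0.31 (-0.58 to -0.05) and -1.28 (-2.62 to -0.21), with 135, 107 and 32 isl1-positive cells. For cx55.5 they were -0.01 (-0.26 to 0.24), 0.53 (0.24 to 0.81) and 0.83 (-0.72 to 2.12), so that no library had less of it in isl1-positive cells beyond counting error. Cells with a UMI of lhx1a had log2 ratios of 0.58 and 0.57 for cx52.6 in the V3 libraries, and in P23H V2 it was -0.16 (-1.63 to 0.99) with 11 such cells. Both splits kept the sub-clusters that carry genes of other cell types, and the part of those cells in these ratios was not tested.

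Outside horizontal cells the 4 genes were rare. The V3 horizontal cells held 91.4% and 96.2% of all UMIs of cx52.6, 91.0% and 95.2% of those of cx55.5, and 86.3% and 93.0% of those of cx52.9. They were 468 of 13554 WT V3 and 481 of 15514 P23H V3 cells. In P23H V2, where they were 7.09% of cells, they held 78.3%, 69.2% and 77.3%. All other cells together had cx52.6 at 4.08, 1.13 and 17.8 CPM in WT V3, P23H V3 and P23H V2. The erythroid cells, which should lack it, had 2.86 CPM (0.590 to 8.36) in WT V3 and 1.05 CPM (0.127 to 3.79) in P23H V3.

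Bipolar cells had 2.25, 0.921 and 64.1 CPM of cx52.6, amacrine cells had 2.10, 1.49 and 16.2 CPM, and rods had 1, 0 and 4 UMIs in all. The highest of these, in P23H V2 bipolar cells, came from 9 UMIs in 9 of 454 cells. These bipolar cells also had 2612 CPM of the 9 horizontal cell markers. For every 1000 UMIs of these markers they had 24.5 UMIs of cx52.6, where horizontal cells of that library had 17.3 and amacrine cells 5.57. The part of horizontal cell transcripts in these levels was not tested. Müller glia had 19.6 CPM (13.6 to 27.4) in WT V3, 1.02 CPM in P23H V3 and 20.4 CPM (9.80 to 37.6) in P23H V2. The WT value rested on 34 UMIs in 9 of 398 cells, of which 1 cell held 14.

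Some of the remainder in WT V3 lay in a few deep barcodes. There, 6 cells outside the horizontal cells had 5 or more UMIs of the 4 connexins, 92 in all, and a median of 8.5 of the 9 horizontal cell markers at a median of 17603 UMIs. The 148 cells with 1 to 4 such UMIs held the other 163 and had a median of 1 marker. In P23H V3 and P23H V2 the cells with 5 or more numbered 2 and 1 and held only 10 and 5 UMIs, where cells with 1 to 4 held 76 and 60. Of the 126 UMIs of cx52.6 outside WT V3 horizontal cells, 27 lay in a shallow unnamed cluster of 1204 cells. Its cx52.6 level was 35.1 CPM (23.1 to 51.0), from 27 cells.

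**Figure D4:**
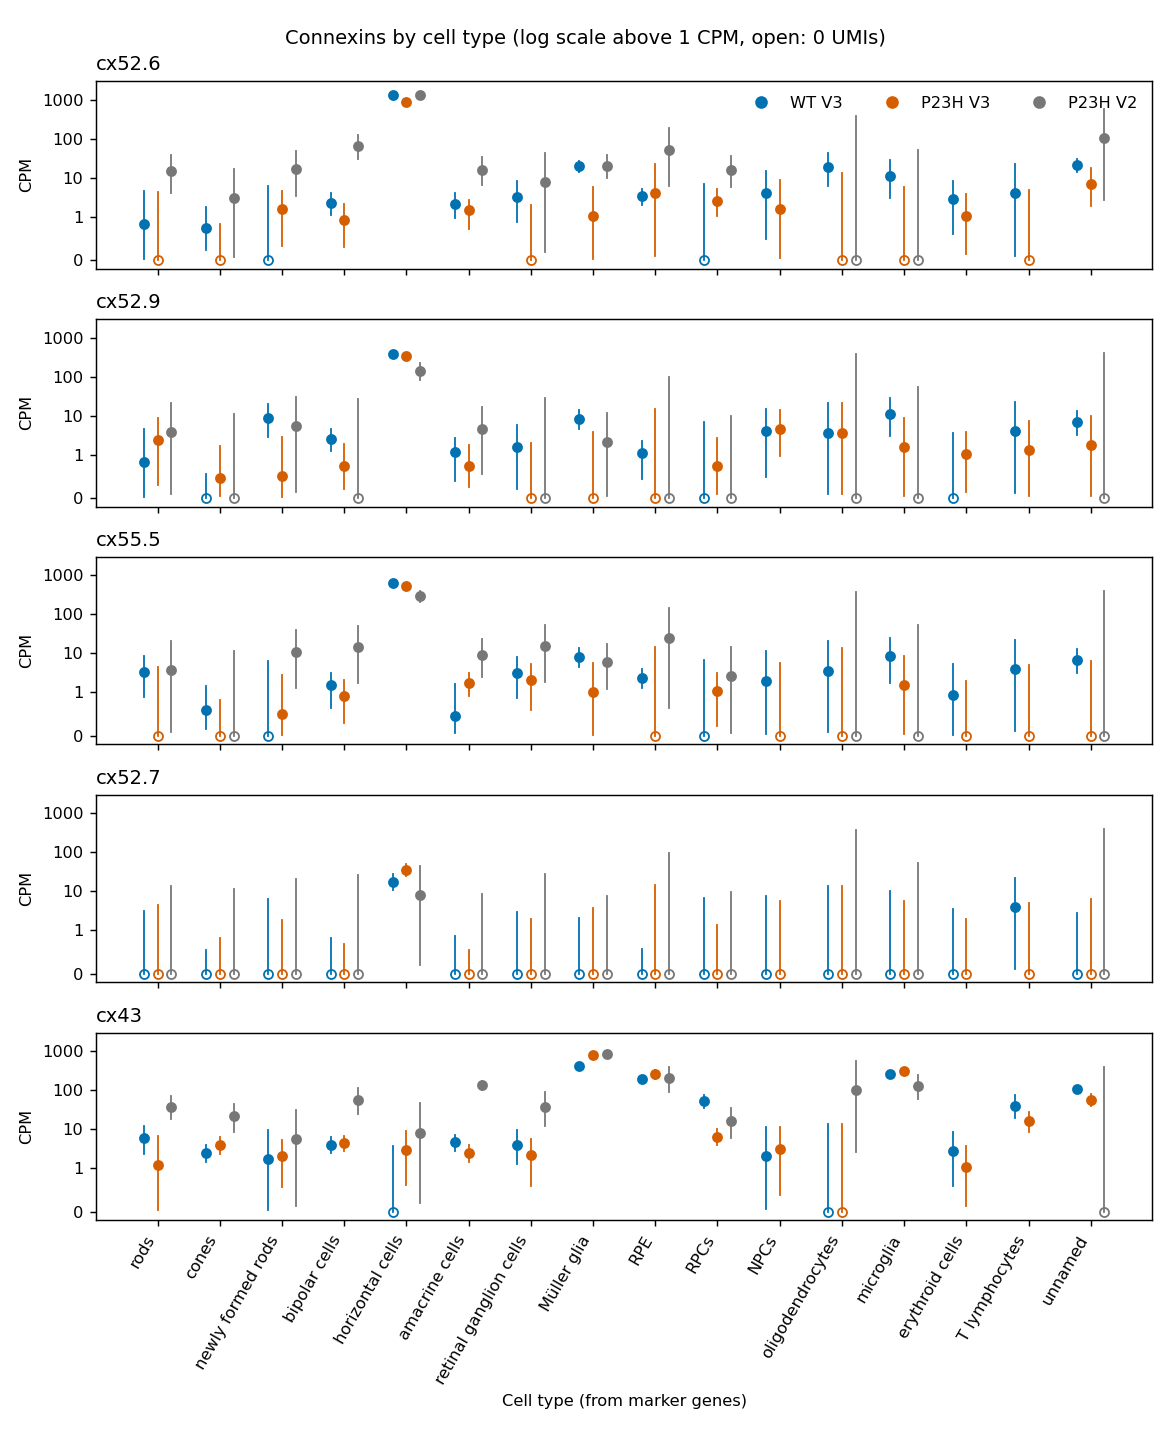
CPM of the 5 connexins (y axes, log scale above 1 CPM) in each cell type (x axis) of the 3 libraries, with 95% Poisson intervals and open points for 0 UMIs. The 4 horizontal cell connexins stand highest in horizontal cells in each library, and cx43 is high in Müller glia, RPE and microglia.

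The only member with a second row in the matrices was cx55.5. In WT V3 the row without a suffix had 608 UMIs and the suffixed copy 56 UMIs in horizontal cells, the latter in 52 cells, of which 39 also had a UMI of the other row. In both P23H libraries the suffixed copy had 0 UMIs, which against the floor of 3 counts put the copy under 3.02 CPM in P23H V3 and under 24.7 CPM in P23H V2, where the interval of WT V3 was 42.0 to 72.1 CPM. Without the copy, the log2 ratio of cx55.5 was -0.15 in place of -0.28, and WT V3 stood at 603 CPM and P23H V3 at 544 CPM, with overlapping intervals.

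Few UMIs of the glial connexin cx43 were counted in horizontal cells. They held 0 in WT V3, 3 in P23H V3 and 1 in P23H V2. By the floor of 3 counts, 0 of 468 WT V3 cells allows up to 0.641% of cells with a UMI, which does not limit the share of cells that express the gene. Its level was highest in Müller glia in every library, with 708 UMIs in 398 cells of WT V3, 770 UMIs in 348 cells of P23H V3 and 411 UMIs in 900 cells of P23H V2. These were 409 CPM (379 to 440), 788 CPM (733 to 846) and 840 CPM (760 to 925). Both P23H libraries lay above WT V3, and their own intervals overlapped.

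The level in P23H V3 Müller glia was 1.93-fold that of WT V3 (1.74 to 2.14, log2 ratio 0.95), and that in P23H V2 was 2.05-fold (1.81 to 2.32) across chemistries. A ratio of at least 1.5 was reached by 17.4% of the 5724 genes with at least 50 UMIs in that direction, and these genes had a median log2 ratio of 0.01. Without thinning, the shares of Müller glia with cx43 were 59.8% in WT V3 and 60.9% in P23H V3, although the median cell had 3871 and 2089 UMIs. Thinned to 1000 UMIs, they were 29.3% (24.4 to 34.6) of 321 cells and 46.7% (40.4 to 53.0) of 255 cells. Thinned to 300 UMIs, they were 9.55% in WT V3, 20.1% in P23H V3 and 22.9% in P23H V2. Horizontal cells, which should lack cx43, had it in 0% and 0.624% of cells in the V3 libraries at medians of 2028 and 1827 UMIs.

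The Müller glia formed a deep and a shallow cluster. The deep one had 436 CPM (404 to 470) in 274 WT cells and 873 CPM (812 to 937) in 238 P23H cells. The shallow cluster, at medians of 859 and 798 UMIs, had 88.1 CPM (45.6 to 154) and 102 CPM (51.2 to 183) on 12 and 11 UMIs. Whether the ratio differs between the clusters was not tested. The 8 Müller glia markers summed to 55525 CPM in WT V3, 43233 CPM in P23H V3 and 47879 CPM in P23H V2, with none at 0, and members of the list differed in both directions. In that order of libraries, rlbp1a, a retinoid-binding protein, had 6884, 2955 and 1973 CPM and icn had 5399, 2005 and 1375 CPM. Also lower in both P23H libraries were gfap (726, 428 and 378 CPM), apoeb (16002, 9480 and 7196 CPM) and ptgdsb.2 (13618, 10234 and 11028 CPM). In contrast ptgdsb.1 had 4825, 10258 and 7121 CPM and aqp1a.1, an aquaporin, had 1743, 2116 and 3391 CPM, while cahz, a carbonic anhydrase, had 6327, 5759 and 15418 CPM. The 7 rod genes in these cells summed to 7704, 1575 and 1273 CPM, and the fall between the V3 libraries was shared by every named cell type. The part of these shifts in the cx43 ratio was not tested.

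Pigment epithelium was the largest source of cx43 in WT V3, with 1268 of 2315 UMIs (54.8%), against 64 of 1176 (5.44%) in P23H V3, where RPE cells were 1.06% of cells rather than 8.16%. Per UMI the RPE levels were 199 CPM (188 to 211), 257 CPM (198 to 328) and 205 CPM (88.6 to 405) in WT V3, P23H V3 and P23H V2. The 3 intervals overlapped. The 8 Müller glia markers in RPE, none of them at 0, summed to 276 CPM in WT V3, 441 CPM in P23H V3 and 6416 CPM in P23H V2. For every 1000 UMIs of these markers RPE had 722 (WT V3), 582 (P23H V3) and 32.0 (P23H V2) UMIs of cx43, where Müller glia had 7.36, 18.2 and 17.5. The P23H V2 value rested on 8 UMIs of cx43, and the part of glial transcripts in it was not tested.

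Microglia, the resident immune cells, also had cx43. In WT V3, 40 of 66 cells had it, with 92 UMIs and 258 CPM (208 to 317), and in P23H V3, 89 of 126 cells had it, with 205 UMIs and 312 CPM (271 to 358). The 8 Müller glia markers summed to 3757 CPM in WT V3 and 5910 CPM in P23H V3 microglia, of which apoeb, which microglia express as well, had 3684 and 5568 CPM. Of the others, icn had 30.9 CPM in WT V3 and 295 CPM in P23H V3, close to the cx43 level there, and the remaining 6 had 0 to 14.0 CPM and 0 to 22.8 CPM, with gfap at 0 in both. The part of glial transcripts in the microglial cx43 level was not tested. Microglia and RPE followed Müller glia in the order of levels in the V3 libraries, and their intervals overlapped each other in all 3 libraries.

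In P23H V2 the pattern beyond Müller glia was less sharp. Its microglia had 9 UMIs (128 CPM, 58.5 to 243), and its amacrine cells had 58 UMIs (134 CPM, 102 to 173), against 4.67 and 2.53 CPM in amacrine cells of WT V3 and P23H V3. Its amacrine cells also had 8941 CPM of the 8 Müller glia markers, with 15.0 UMIs of cx43 for every 1000 UMIs of these markers, where Müller glia of that library had 17.5. Its microglia had 6978 CPM of these markers, of which apoeb, which microglia express as well, had 4718 CPM and icn had 1322 CPM. For every 1000 UMIs of the 8 markers they had 18.3 UMIs of cx43, whereas V3 microglia had 68.8 (WT) and 52.8 (P23H). With apoeb in the sum, these values cannot be set against those of Müller glia, and the part of glial transcripts was not tested. Retinal progenitors (RPCs) had 52.8 CPM of cx43 in 61 WT V3 cells, 6.54 CPM in 340 P23H V3 cells and 16.0 CPM in 391 P23H V2 cells. The WT V3 value rested on 28 UMIs in 9 cells, of which 1 cell held 11. The P23H V3 value rested on 18 UMIs in 8 cells, of which 1 cell held 7, and that of P23H V2 on 6 UMIs in 6 cells.

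**Figure D5:**
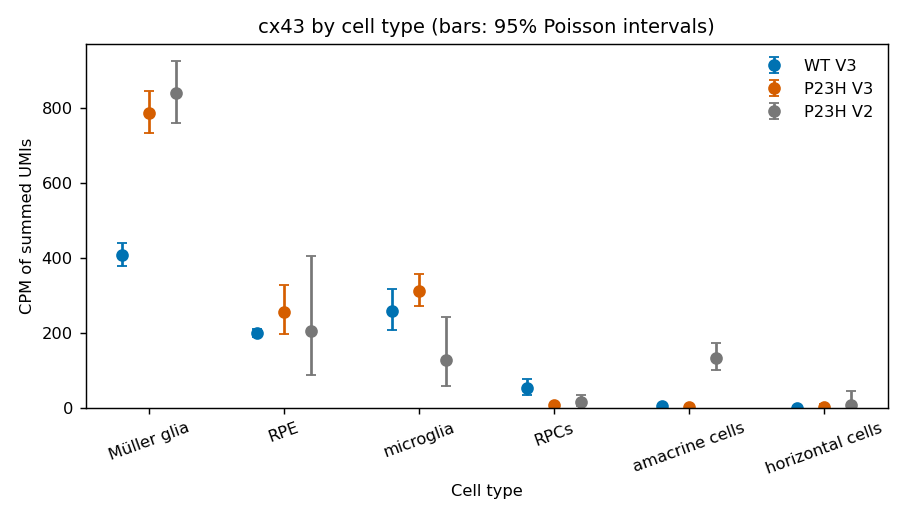
CPM of cx43 (y axis) in 6 cell types (x axis) of each library, with 95% Poisson intervals. Müller glia stand highest, at 409, 788 and 840 CPM, and horizontal cells are at or near 0.

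Of the 28 further connexin symbols, 4 reached 200 UMIs over the 3 libraries, and 6 had none. The most frequent was cx43.4, with 1356 UMIs and its highest level in RPCs in each library (98.1, 138 and 222 CPM). The RPC interval overlapped that of newly formed rods in WT V3 (73.3 to 129 and 41.4 to 82.7 CPM). In P23H V3 it overlapped that of RPE (124 to 152 and 81.2 to 172 CPM). Of the 627 UMIs of cx43.4 in WT V3, RPE held 362 (56.9 CPM) and RPCs held 52. Next, cx47.1 was highest in amacrine cells (51.6, 54.6 and 66.9 CPM), cx32.2 in microglia (427, 457 and 128 CPM) and cx27.5 in oligodendrocytes of the V3 libraries (527 and 443 CPM). In V3 microglia cx32.2 was thus above cx43. All 4 pannexins, which form channels but seldom junctions, stayed under 200 UMIs, with 37 for panx1a. The 4 scaffold genes of the zonula occludens family, whose proteins bind connexins, were all above 200 UMIs: tjp2a was highest in bipolar cells (319, 338 and 256 CPM), while tjp1a and tjp2b were highest in oligodendrocytes of the V3 libraries, and tjp1b had no single type in all 3.

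Profiles over 15 cell types in both V3 libraries were compared (30 points of log2(CPM + 10), which share libraries and are a description only). The horizontal cell connexins were chosen for their place in horizontal cells and were rare elsewhere. High correlations among them follow from that choice and are not further evidence of likeness. Pearson's r was 0.99 between cx52.6 and cx55.5, 0.98 between cx52.9 and cx55.5, and 0.98 between cx52.6 and cx52.9, against -0.10 between cx52.6 and cx43. Among 14021 genes the closest to cx52.6 were tymp (0.99), cx55.5, ompa (0.99), slc6a1l (0.99) and si:dkey-273o13.3 (0.99). The closest to cx55.5 were tymp (1.00), prkg2 (0.99), si:ch211-276i12.4 (0.99), slc34a2a (0.99) and fam212ab (0.99), and those of cx52.9 were tymp (0.98), cx55.5, si:ch211-276i12.4 (0.98), prkg2 (0.98) and fam212ab (0.98).

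For cx52.7, with 54 UMIs in the V3 libraries, the nearest were si:ch211-117c19.1 (0.98), si:rp71-1h20.3 (0.98), si:ch211-48m9.1 (0.97), zgc:158328 (0.97) and si:dkey-283b1.7 (0.97). Those of cx43 were zfp36l1b (0.94), rab32a (0.93), LOC100334443 (0.92), rasgrp4 (0.92) and rgn (0.92), which followed it less closely. The gene tymp was in the first 5 of 3 of the 4 horizontal cell connexins, at 551 CPM in WT V3 and 499 CPM in P23H V3 horizontal cells.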

How the data were processed

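Per the submitters' processing notes, Cell Ranger (3.1.2.0) and genome GRCz11 were used, and the authors deposited whole-number UMI counts per gene row and barcode, without normalization. Rows that differed only by a numbered suffix were summed (47048 rows to 30579 symbols). Cells had to have 200 or more genes, no more than 6000 (WT) or 4700 (P23H) genes and no more than 10% mitochondrial UMIs. In Seurat 5.3.0 (R 4.3.3) the 2 V3 libraries went through canonical correlation integration and P23H V2 was clustered alone, without connexin rows, with 2000 variable genes, 20 principal components and a resolution of 0.8 (0.4 for sub-clusters). Clusters were named from at least 3 fixed markers. Clusters with a profile correlation above 0.9 with all other cells, or with fewer of their type's markers met than not met and none among their 10 leading genes, stayed unnamed, a rule set after seeing the clusters. The members and lists were chosen with earlier results of these data known.

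Levels are CPM of summed UMIs with exact 95% Poisson intervals, shares have Clopper-Pearson intervals, and ratios have exact conditional binomial intervals. A count of 0 was set against a floor of 3 counts. The named genes were the 5 members, further connexins, pannexins and scaffolds with at least 200 UMIs, the 5 genes most like each member (genes with at least 100 UMIs, types with at least 50 cells in each V3 library) and the 5 leading genes of each sub-cluster by CPM ratio (pseudocount 10, at least 50 UMIs). Gene names were looked up in RefSeq (GRCz12tu), whose coordinates were not used. Cells are not replicates, so no test was made. The ratio calculation was tested on simulated data. Alternatives were other cell filters, resolutions, clusterings and assignments, removal of the 8% of cells with the highest Scrublet scores (scanpy 1.11.5), TMM scaling (edgeR 4.0.16), totals without the 20 most abundant genes, subtraction of the level in erythroid cells, copies not summed, and P23H V2. Filters were applied to the cells as already named. Calculations ran in scipy 1.17.1, pandas 2.3.3 and numpy 2.4.6 under python 3.11.15, with plots in matplotlib 3.10.9.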

Additional observations from a re-analysis of the deposited data

How the results depend on the processing

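The log2 ratio of P23H V3 over WT V3 kept its direction in 12 of 12 alternatives for cx52.6, 12 of 12 for cx52.9, 13 of 13 for cx55.5, 12 of 12 for cx52.7 and 13 of 13 for cx43. Some of these alternatives changed almost nothing, as resolutions of 0.4 and 1.2 returned the main ratio for each gene. Another removed cells by the scores of the doublet caller that had marked too few cells. It therefore cannot show whether doublets affect the ratios. The counts are therefore not independent checks, and the interval of cx52.9 still ended at -0.01. For cx55.5 the ratio was -0.15 with the suffixed copy not summed, where the CPM intervals of WT V3 and P23H V3 overlapped. Its direction was thus not separate from counting error without that copy. With P23H V2 in place of P23H V3, the log2 ratio in horizontal cells was -0.03 (-0.27 to 0.21) for cx52.6, which gives no direction, -1.47 for cx52.9 and -1.15 for cx55.5, and for cx52.7 it reversed from 0.98 to -1.11 on 1 UMI. These values cross chemistries, and the cause was not tested. The log2 ratio of cx43 in Müller glia was 0.95, and 0.74 with each library clustered by itself, 0.70 with each cell assigned by its marker genes, and 0.63 with the unnamed cluster led by keratin genes added, an alternative chosen after seeing the data, as were the deep Müller glia cluster only (1.00) and the horizontal cells without the sub-clusters that carry other types' markers. All other alternatives left these P23H V3 over WT V3 ratios within the counting interval of the main value. Shares of V3 cells with a UMI fell with thinning to a fixed depth, as fewer UMIs were kept. No replicate could be left out and no paired analysis was possible because each group had 1 library. At a sub-cluster resolution of 0.8, the sub-cluster with the highest lhx1a level held 121 WT V3 cells in place of the 178 of the gad1b sub-cluster, and against the other WT V3 horizontal cells its log2 ratio went from 1.05 to 0.70 for cx52.9 and reversed from 1.02 (-0.48 to 2.62) to -0.30 (-2.14 to 1.28) for cx52.7, on 5 UMIs. Depth limits cx52.7, which had 18, 35 and 1 UMIs, and all values of P23H V2.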

Other observations

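The unnamed clusters also held connexin UMIs. A shallow WT V3 cluster of 1204 cells, at a median of 591 UMIs, whose profile was like that of all other cells, had cx43 in 38 cells (49.3 CPM, 34.9 to 67.7). A cluster of 60 WT and 115 P23H cells with keratin genes among its leading genes had cx43 at 220 CPM (179 to 267) in WT V3 and 73.8 CPM (50.2 to 105) in P23H V3, the reverse of the order in Müller glia. The WT value rested on 99 UMIs in 22 cells, of which 1 cell held 31. The P23H value rested on 31 UMIs in 11 cells, of which 1 cell held 13. The keratin gene krt4 was at 26.6 CPM in the WT cells of the cluster and 779 CPM in its P23H cells. Whether the cluster holds the same kinds of cells in both libraries was not tested.

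The suffixed cx55.5 copy, present in WT V3 and at 0 UMIs in both P23H libraries, had company. Of 1157 suffixed rows with at least 50 UMIs in WT V3, 53 were at 0 in P23H V3 (4.58%), against 0.387% of rows without a suffix, and of 1201 suffixed rows with at least 50 UMIs in P23H V3, 70 were at 0 in WT V3 (5.83%), against 0.579%. Which sequence each row stands for was not examined.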
